A study of Mus musculus with 21 samples.

Results

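The genes of cholesterol synthesis, uptake and handling were followed through the development of the mouse testis. The set has 30 genes, chosen by name for their place in the pathway, with earlier results of these data known. It holds 18 genes of synthesis, 5 regulators and 7 of uptake, transport and export. Of these, 28 had a probe set that the platform's annotation table names by 1 gene, and all 28 passed the filter on dim probe sets, among the 14338 genes tested. Acat2, the cytosolic thiolase at the head of the pathway, and Soat1, which esterifies cholesterol for storage, were not analysed for expression here. Both were part of the promoter search only. The samples were whole testes, or whole gonads, of wild-type male CD-1 mice, an outbred stock, with no treatment. Gonads were dissected on gestation days 11, 12, 14, 16 and 18 (written gd11 to gd18) and 2 days after birth (pnd2), and RNA of each sample was hybridised to 1 single-channel oligonucleotide array. Per the labels there were 5 arrays at gd11 (replicates 16 to 20, each a pool of 2) and 3 at gd12 (replicates 13 to 15, each a pool of 5). Each later stage had 3 arrays, for which no pool size is recorded. A reference array (replicate 21) carried RNA pooled from 8 whole newborns of both sexes at pnd 0.5. The series' design text describes 1 animal per sample and triplicates throughout, which the labels of gd11 and gd12 contradict, and the labels were followed. Where samples were pools, the spread between arrays is between pools and not between animals.

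Cells make cholesterol from acetyl-CoA: the mevalonate kinases and farnesyl diphosphate synthase lead to squalene, and a chain of sterol-modifying enzymes turns squalene into cholesterol. When membrane sterol is low, the escort protein Scap carries the SREBP transcription factors, encoded by Srebf1 and Srebf2, out of the endoplasmic reticulum for cleavage, and when sterol is high the Insig proteins hold them back. In the testis cholesterol is also the raw material of androgens, which fetal Leydig cells make from sterol that they synthesise or take up from lipoproteins, in part through the HDL receptor Scarb1. The question behind the series was how gene expression changes from stage to stage.

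Because the synthesis genes moved together over these stages, their promoters are shown first. RefSeq windows of 300 bases, from 250 before to 50 after a transcription start (assembly GRCm38.p6), were at hand for 24 of the 30 genes. The 3 motifs below were searched on both strands: TCACNCCAC, the core of a sterol regulatory element that SREBPs bind, CCAAT, the NF-Y box, and GGGCGG, the Sp1 box. In the sequences below the capitals mark matches to TCACNCCAC and CCAAT, on either strand (a CCAAT on the other strand reads ATTGG). The 4 synthesis genes shown are the first enzyme measured (Hmgcs1, chr13:119690101-119690400 (+ strand)) and 3 sterol-modifying enzymes with large changes (Cyp51, chr5:4104648-4104947 (- strand); Tm7sf2, chr19:6067801-6068100 (- strand); Msmo1, chr8:64733529-64733828 (- strand)). Srebf2 (chr15:82147019-82147318 (+ strand)) stands for the regulators, and Abca1 (chr4:53159846-53160145 (- strand)), the exporter whose course over the stages differed, stands for handling.
Hmgcs1: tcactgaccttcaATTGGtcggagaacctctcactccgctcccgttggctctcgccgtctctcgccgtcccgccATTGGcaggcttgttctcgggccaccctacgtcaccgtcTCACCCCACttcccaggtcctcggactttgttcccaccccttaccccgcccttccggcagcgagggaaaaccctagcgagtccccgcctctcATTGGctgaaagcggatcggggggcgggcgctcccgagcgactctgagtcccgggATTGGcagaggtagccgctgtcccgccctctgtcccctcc
Cyp51: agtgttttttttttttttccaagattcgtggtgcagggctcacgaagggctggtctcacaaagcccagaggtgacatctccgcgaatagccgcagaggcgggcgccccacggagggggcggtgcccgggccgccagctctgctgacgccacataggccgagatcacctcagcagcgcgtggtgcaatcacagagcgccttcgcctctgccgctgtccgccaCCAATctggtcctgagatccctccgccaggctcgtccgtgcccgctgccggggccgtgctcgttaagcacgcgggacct
Tm7sf2: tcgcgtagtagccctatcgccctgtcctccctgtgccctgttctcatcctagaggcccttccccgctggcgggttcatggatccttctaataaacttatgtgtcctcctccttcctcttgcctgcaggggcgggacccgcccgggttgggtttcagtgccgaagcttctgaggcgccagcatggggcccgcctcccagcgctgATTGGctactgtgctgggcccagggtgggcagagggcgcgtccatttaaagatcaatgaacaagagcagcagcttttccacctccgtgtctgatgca
Msmo1: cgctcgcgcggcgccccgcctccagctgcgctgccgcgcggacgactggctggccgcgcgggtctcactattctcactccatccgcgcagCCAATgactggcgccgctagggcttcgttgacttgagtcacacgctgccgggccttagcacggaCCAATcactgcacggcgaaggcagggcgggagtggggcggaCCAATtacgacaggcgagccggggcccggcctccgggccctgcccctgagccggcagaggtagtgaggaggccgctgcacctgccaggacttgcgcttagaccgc
Srebf2: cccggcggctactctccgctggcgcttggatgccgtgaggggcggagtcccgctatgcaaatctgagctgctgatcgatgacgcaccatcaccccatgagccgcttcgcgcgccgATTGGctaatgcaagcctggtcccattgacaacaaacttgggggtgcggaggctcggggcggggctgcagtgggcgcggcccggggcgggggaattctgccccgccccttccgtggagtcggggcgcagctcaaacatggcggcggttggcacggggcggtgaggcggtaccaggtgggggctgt
Abca1: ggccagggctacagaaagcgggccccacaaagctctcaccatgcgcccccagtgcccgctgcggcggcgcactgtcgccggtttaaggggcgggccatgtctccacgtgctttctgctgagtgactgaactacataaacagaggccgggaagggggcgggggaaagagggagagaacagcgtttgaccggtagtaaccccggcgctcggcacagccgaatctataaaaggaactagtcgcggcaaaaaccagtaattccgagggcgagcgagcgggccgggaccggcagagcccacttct
The TCACNCCAC core was found in 1 of the 24 genes, Hmgcs1, as TCACCCCAC starting at base -137 from the start site, against 1.44% of 27025 genes with a window. CCAAT was found in 20 of the 24 genes (83.3%) and in 14 of the 15 synthesis genes with a window (93.3%), against 41.1% of all genes. GGGCGG was found in 23 of 24 (95.8%), against 38.2% of all genes. Neither TCACNCCAC nor CCAAT was found in Abca1, Acat2, Scap or Lipe. Among the 4 uptake and handling genes with a window CCAAT was found in 2 (50%), against 41.1% of all genes. The windows of the set were richer in G and C (median 62%, against 52.7% over all windows), and no windows of equal composition were compared. A match is a string of letters and not evidence of binding. The absence of a match covers this window and this exact spelling alone, and near matches were not counted.

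Intensities are in the arrays' own units, were scaled by the authors to a common level, and can be compared between stages for 1 gene but not between genes. Replicate arrays of a stage correlated at 0.93 to 0.98 over probe sets, and the number of arrays limits the precision. Fold changes are differences of stage means of log2(intensity + 22.4), later minus earlier stage, ± SE, and a gene was called when limma's adjusted p over all 14338 genes was below 0.05. Testis markers bore out the tissue from gd12 on: the mean log2 level of 8 Sertoli markers was 7.06 to 7.52 on the gd11 arrays, 10.52 to 11.26 at gd12 and 11.69 to 12.73 later. At gd11 the defining Sertoli marker Amh, at 9.61 ± 11.8, and the fetal Leydig marker Cyp17a1, at 6.78 ± 2.14 (SD, n = 5), were near background. The gd11 replicates 16 and 17 stood apart by a mean log2 level of 9 neural markers of 12.38 and 11.62, against 7.97 to 9.02 on the other gd11 arrays. Replicate 13 of gd12 stood apart from the other gd12 arrays by 5 adrenal cortex markers (7.83, against 6.36 and 6.41). Its level lay within the range of the gd14 arrays (7.59 to 8.14). Since whole organs were measured, fewer cells of a type and less RNA per cell cannot be told apart in any of these comparisons.

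Over the 6 stages the synthesis genes shared a course. A moderated F-test called 27 of the 28 genes as varying with stage, against 68.3% of all genes, and Npc2 was the exception (adjusted p = 0.0778, limma). Of the 17 synthesis genes 16 were highest at gd16, the squalene synthase gene Fdft1 being highest at gd14. Likewise 16 were lowest at gd12, and Pmvk, phosphomevalonate kinase, was lowest at pnd2. The distance between the lowest and highest stage mean ran from 0.68 on the log2 scale for the squalene epoxidase Sqle to 2.85 for Tm7sf2. Most regulators and handling genes peaked at another stage: Srebf2, Scap, Insig2, Abca1 and Lipe were highest at gd18, Srebf1 at pnd2, Npc1 at gd14 and Npc2 at gd11. Insig1 and Stard4, like most synthesis genes, were highest at gd16 and lowest at gd12, and Scarb1 was highest at gd16 and lowest at gd11.

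**Figure D1:**
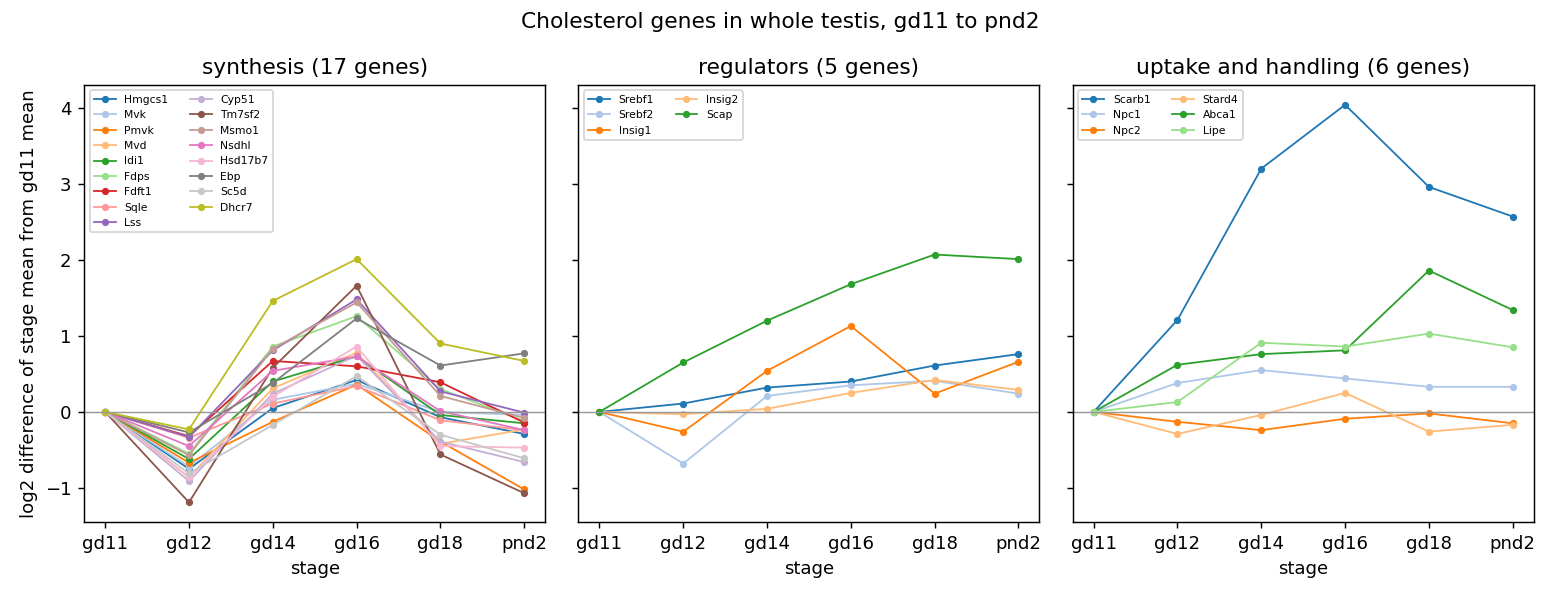
Difference of each stage mean from the gd11 mean on the log2 scale (vertical axis) by stage (horizontal axis) for the 17 synthesis genes, 5 regulators and 6 uptake and handling genes, 1 line per gene. The synthesis lines dip at gd12 and peak at gd16, Fdft1 peaking at gd14, while Scap climbs to gd18 and Abca1 has its step at gd18.

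At gd12, against gd11, synthesis genes were lower. Of the 28 genes 15 were called, against 21.4% of all genes. Of 17 synthesis genes, 0 rose and 11 fell, with a median change of -0.62, where 11.2% of all genes rose and 10.2% fell, and the arrays of the 2 stages did not overlap for 10 genes (20.7% of all genes). The falls were spread along the pathway: 6 of the 7 genes up to squalene and 5 of the 10 from squalene to cholesterol. Tm7sf2, a sterol reductase that acts after Cyp51, read 254, 250 and 259 at gd12, against 987, 865, 400, 485 and 492 at gd11, and fell by 1.19 ± 0.28 on the log2 scale (adjusted p = 0.00568, limma). Cyp51, the lanosterol demethylase, read 958, 937 and 923 at gd12, against 2188, 1687, 1479, 1669 and 1991 at gd11 (-0.91 ± 0.14, adjusted p = 0.000146, limma). In both genes each gd12 array lay below each gd11 array, and the gd12 arrays lay close together. Mvd, the mevalonate diphosphate decarboxylase, averaged 321 ± 33.5 at gd12 and 607 ± 101 at gd11 (-0.86 ± 0.14), and Hmgcs1, the HMG-CoA synthase, averaged 7648 ± 419 at gd12 and 13149 ± 3198 at gd11 (-0.75 ± 0.17; SD, n = 3 and 5). The falls of Hsd17b7, Sc5d, Mvk, Pmvk, Idi1, Msmo1 and Fdps lay between -0.86 and -0.55, and those of Idi1, Msmo1 and Fdps were each lost with 1 or 2 of the 8 arrays left out in turn. Dhcr7, Ebp, Fdft1, Lss, Sqle and Nsdhl were not called, at -0.23 to -0.45.

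The gd11 level of these genes was not uniform. The mean log2 level of the 17 genes was 10.87 and 10.64 on the gd11 replicates 16 and 17, the arrays high in neural markers, and 10.27 to 10.35 on the other 3, against 9.81 to 9.92 at gd12. Replicate 16 was the highest gd11 array for 14 of 17 genes, and for 13 of 17 the replicates 16 and 17 were the highest pair. Without them 9 of 17 fell and the median change was -0.38, with Tm7sf2 at -0.79 (adjusted p = 0.0272, limma), Cyp51 at -0.84 (adjusted p = 0.000422) and Hmgcs1 at -0.52 (adjusted p = 0.0118), and Fdps and Msmo1 were no longer called. Without gd12 replicate 13 as well, 8 fell. The part of the neural signal in the gd11 level of the synthesis genes was not tested beyond leaving these arrays out.

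**Figure D2:**
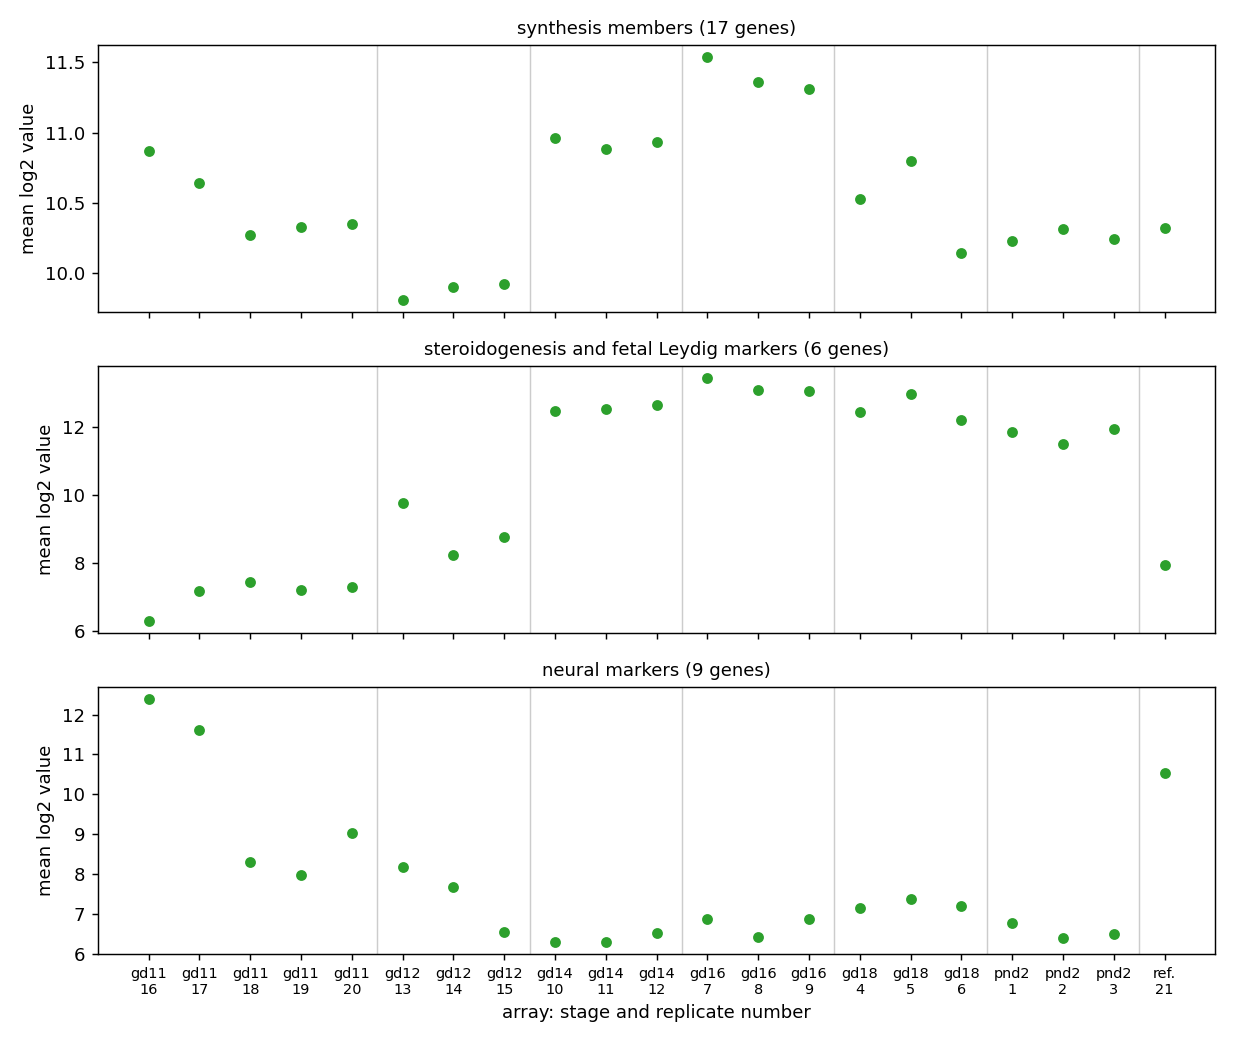
Mean of log2(intensity + 22.4) (vertical axes) on each array (horizontal axis, stage and replicate number) for the 17 synthesis genes, 6 steroidogenesis and fetal Leydig markers and 9 neural markers. Synthesis genes lie lowest on the gd12 arrays (9.81 to 9.92) and highest on the gd16 arrays, and the neural panel sets the gd11 replicates 16 and 17 apart (12.38 and 11.62).

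At gd14, against gd12, nearly the whole synthesis pathway was higher. Of the 28 genes 21 were called, against 18.7% of all genes. Of 17 synthesis genes 16 rose and 0 fell, where 11.4% of all genes rose and 7.34% fell, the median change was 1.02, and for all 17 the lowest gd14 array lay above the highest gd12 array (groups did not overlap for 37.5% of all genes). Sqle, which read 3281, 3129 and 3311 at gd14, against 2200, 2403 and 2518 at gd12, was the gene not called (0.45 ± 0.17, adjusted p = 0.0828, limma). The 7 genes up to squalene all rose, by 0.54 (Pmvk) to 1.41 (Fdps). Fdps, farnesyl diphosphate synthase, read 9284, 9333 and 9459 at gd14, against 2686, 4328 and 3721 at gd12 (1.41 ± 0.18, adjusted p = 3.51e-05, limma). The 3 gd14 arrays of Fdps were nearly level, well above a more scattered gd12. Hmgcs1 averaged 13353 ± 279 at gd14 and 7648 ± 419 at gd12 (0.80 ± 0.18), and Fdft1 averaged 4677 ± 136 at gd14 and 2379 ± 523 at gd12 (0.99 ± 0.20; SD, n = 3 each).

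Among the sterol-modifying enzymes the rise at gd14 was led by Tm7sf2, which read 944, 879 and 928, against 254, 250 and 259 at gd12 (1.76 ± 0.32, adjusted p = 0.000756, limma). Dhcr7, the dehydrocholesterol reductase of the last step, read 3212, 2766 and 3141 at gd14, against 953, 703 and 1189 at gd12 (1.69 ± 0.26, adjusted p = 0.000165). Msmo1, an oxidase in the removal of the sterol's methyl groups, read 5212, 4373 and 5019 at gd14, against 1832, 1732 and 1923 at gd12 (1.40 ± 0.18, adjusted p = 2.42e-05). For each of the 3 genes the gd14 arrays lay more than 2-fold above every gd12 array. The other rises were those of Cyp51 (1.15 ± 0.16), the lanosterol synthase Lss (1.14 ± 0.21), Hsd17b7 (1.06 ± 0.16) and Nsdhl (0.99 ± 0.19), both of the demethylation complex, the sterol isomerase Ebp (0.65 ± 0.16) and the sterol desaturase Sc5d (0.64 ± 0.15).

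Measured against gd11 instead, gd14 was higher for fewer synthesis genes. Of the 28 genes 14 were called, against 43.1% of all genes. Of 17 synthesis genes, 7 rose and 0 fell, where 23.7% of all genes rose and 19.3% fell, the median change was 0.38, and the arrays did not overlap for the same number (39.9% of all genes). Dhcr7, at 3040 ± 240 at gd14 and 1108 ± 224 at gd11 (SD, n = 3 and 5), had the largest change of the 7 (1.46 ± 0.23, adjusted p = 4.72e-05, limma). Fdps, Msmo1, Lss, Fdft1, Nsdhl and Ebp rose by 0.86 to 0.38. The call of Ebp held in 1 of the 8 fits that left 1 array out (highest adjusted p = 0.139, limma), and that of Nsdhl was lost without gd14 replicate 10 (adjusted p = 0.0575). Hmgcs1 was not called, at 13353 ± 279 at gd14 and 13149 ± 3198 at gd11 (0.05 ± 0.17, adjusted p = 0.817, limma). Without the gd11 replicates 16 and 17, 11 of 17 rose, with Tm7sf2 at 0.97 (adjusted p = 0.00338) and Idi1, the isopentenyl diphosphate isomerase, at 0.67 (adjusted p = 0.000219) among them.

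**Figure D3:**
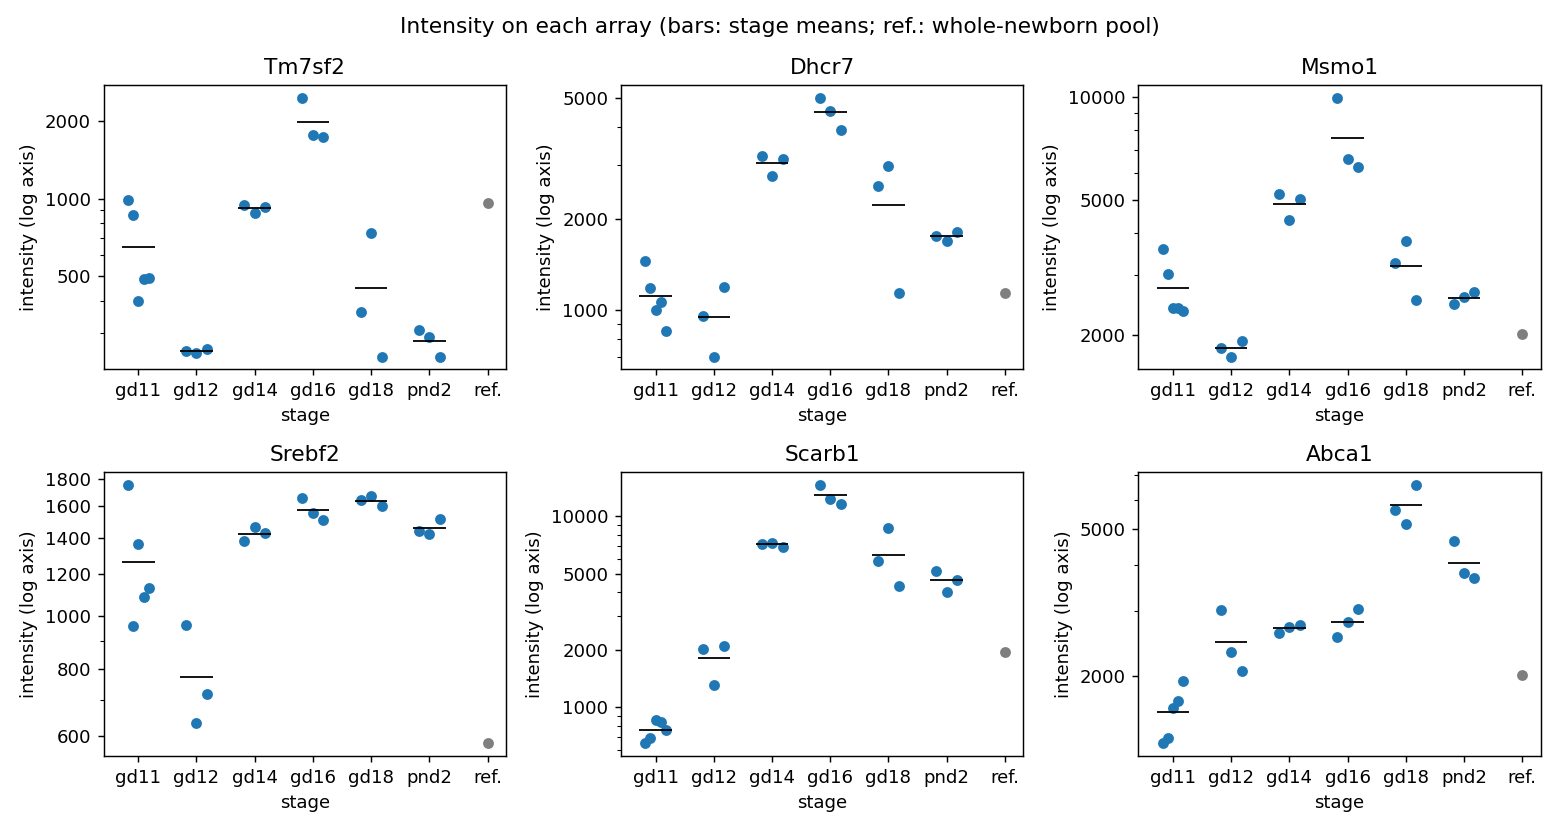
Intensity on each array (vertical log axes) by stage (horizontal axes), with bars at the stage means and the whole-newborn pool in grey, for Tm7sf2, Dhcr7, Msmo1, Srebf2, Scarb1 and Abca1. Tm7sf2 is low and tight at gd12 (250 to 259) and highest at gd16, Scarb1 climbs at each stage to gd16, and Abca1 is highest at gd18 (5182 to 6605).

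At gd16, against gd14, a further rise was seen mainly in the sterol-modifying enzymes. Of the 28 genes 10 were called, against 10.4% of all genes. Of 17 synthesis genes 8 rose and 0 fell, where 5.39% of all genes rose and 4.99% fell, and the median change was 0.49. They were 7 of the 10 genes from squalene to cholesterol and 1 of the 7 before it, Pmvk (0.49 ± 0.13), and no test of the difference between these parts was made. Ebp read 1806, 1485 and 1506 at gd16, against 823, 944 and 857 at gd14 (0.85 ± 0.16, adjusted p = 0.00273, limma). Tm7sf2 read 2471, 1765 and 1743 at gd16, against 944, 879 and 928 at gd14 (1.08 ± 0.32, adjusted p = 0.0354). Both had every gd16 array above every gd14 array, with replicate 7 the highest. Hsd17b7, Lss, Sc5d, Msmo1 and Cyp51 rose by 0.66 to 0.50. Fdft1 averaged 4462 ± 322 at gd16 and 4677 ± 136 at gd14, the single synthesis gene with a change below 0 (-0.07 ± 0.20, adjusted p = 0.87, limma). The count is fragile: with any 1 array of these stages left out 2 to 5 of 17 rose, and of the 10 calls over the whole set 1, that of Ebp, held whichever array was left out. The groups nevertheless did not overlap for 13 of 17 (39.1% of all genes), with each of the 13 higher at gd16.

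At gd18, against gd16, the pathway was lower again. Of the 28 genes 16 were called, against 4.88% of all genes. Of 17 synthesis genes 0 rose and 13 fell, where 1.70% of all genes rose and 3.18% fell, with a median change of -0.77, and for 16 of 17 every gd18 array lay below every gd16 array (groups did not overlap for 28.7% of all genes). Tm7sf2 read 360, 737 and 242 at gd18, against 2471, 1765 and 1743 at gd16, and fell by 2.23 ± 0.32 (adjusted p = 0.000649, limma). Hsd17b7 read 674, 714 and 473 at gd18, against 1570, 1507 and 1572 at gd16 (-1.31 ± 0.16, adjusted p = 0.000243). Msmo1 read 3261, 3787 and 2544 at gd18, against 9963, 6595 and 6226 at gd16 (-1.23 ± 0.18, adjusted p = 0.000649). In all 3 genes replicate 6 was the lowest gd18 array and replicate 5 the highest. Among the genes from squalene on, Sqle was the 1 of 10 not called, at 2808 ± 501 at gd18 and 3832 ± 387 at gd16 (-0.46 ± 0.17). Up to squalene 4 of 7 fell: Mvd (-1.20 ± 0.16), Fdps (-0.96 ± 0.18), Idi1 (-0.77 ± 0.18) and Pmvk (-0.75 ± 0.13). The calls of Nsdhl (-0.72), Ebp (-0.62), Dhcr7 (-1.11) and Idi1 were each lost without gd16 replicate 7 and without gd16 replicate 8. Hmgcs1 was not called, at 12559 ± 3185 at gd18 and 17270 ± 1568 at gd16 (-0.49 ± 0.18, adjusted p = 0.147, limma; SD, n = 3 each).

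The arrays of these stages differed among themselves. Replicate 6 of gd18 was the lowest of its stage for 16 of 17 synthesis genes and replicate 5 the highest for 14, with mean log2 levels of 10.14 and 10.80, and replicate 4 lay at 10.53. Their steroidogenesis levels ran from 12.21 to 12.96, and replicate 6 also had the highest gd18 level of 8 macrophage markers (9.43, in a range from 8.49). Replicate 7 of gd16 was the highest of its stage for 14 of 17. With 1 array left out in turn 9 to 13 of 17 fell, 9 without gd16 replicate 7. The part of these differences in the fall was not tested further.

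At pnd2, against gd18, few genes passed the test. Of the 28 genes 2 were called, against 7.80% of all genes. Of 17 synthesis genes 0 rose and 1 fell, where 2.54% of all genes rose and 5.26% fell, with a median change of -0.25. The gene was Pmvk, which read 294, 302 and 277 at pnd2, against 484, 500 and 411 at gd18 (-0.63 ± 0.13, adjusted p = 0.00519, limma). Its groups did not overlap, as was the case for 33.5% of all genes. Fdft1 averaged 2653 ± 172 at pnd2 and 3854 ± 450 at gd18 (-0.53 ± 0.20, adjusted p = 0.111), and Ebp, not called, averaged 1150 ± 91.4 at pnd2 and 1052 ± 266 at gd18 (SD, n = 3 each).

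Over the whole span, at pnd2 against gd11, 14 of the 28 genes were called, against 48.6% of all genes. Of the 17 synthesis genes 2 rose and 5 fell, where 24.2% of all genes rose and 24.4% fell, which puts the 2 rises below and the 5 falls close to the shares of all genes. Ebp read 1175, 1049 and 1227 at pnd2, against 797, 673, 631, 668 and 578 at gd11 (0.77 ± 0.14, adjusted p = 0.000199, limma). Dhcr7 read 1750, 1683 and 1806 at pnd2, against 1448, 1178, 1000, 1066 and 850 at gd11 (0.67 ± 0.23, adjusted p = 0.0219). The Dhcr7 call was lost in 3 of the 8 fits that left 1 array out, those without gd11 replicate 20, pnd2 replicate 1 or pnd2 replicate 3 (highest adjusted p = 0.0658, limma). Every pnd2 array of both genes lay above every gd11 array (groups did not overlap for 44.6% of all genes). Tm7sf2 (-1.07 ± 0.28), Pmvk (-1.02 ± 0.11), Cyp51 (-0.66 ± 0.14), Sc5d (-0.61 ± 0.13) and Hsd17b7 (-0.47 ± 0.14) lay below it. The median change of -0.23 became 0.02 without the gd11 replicates 16 and 17, with the same counts.

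**Figure D4:**
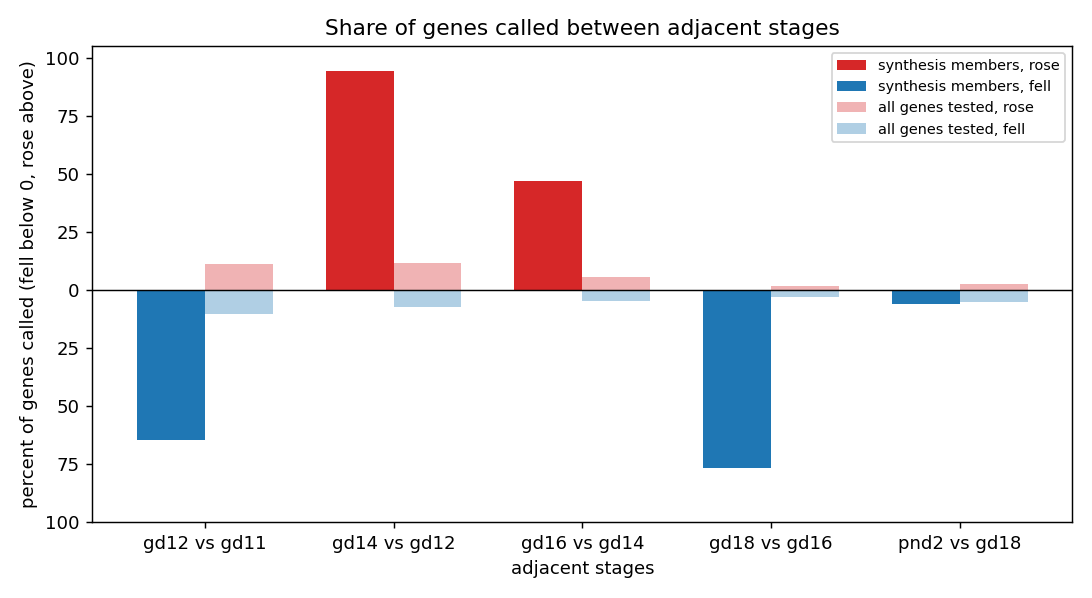
Percent of genes called (vertical axis, rises above 0 and falls below) in each comparison of adjacent stages (horizontal axis) for the 17 synthesis genes, left bars, and all 14338 genes tested, right bars. The synthesis bars show falls at gd12 and gd18 and rises at gd14 and gd16, and at pnd2 they are as short as those of all genes.

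Several probe sets of the same gene did not always agree within this test. Hsd17b7 is represented by a probe set of the platform's x class, whose probes can match other transcripts. Its other 3 probe sets changed by -0.56, 0.07 and -0.46 at gd12 against gd11, none of them called. At pnd2 against gd11, where the chosen probe set fell, the other 3 were at 0.20, -0.29 and -0.05, none of them called. At gd14 against gd12 the other 3 were at 0.56, -0.11 and 0.73, and the last alone was called. At gd16 against gd14 they were at 0.93, 0.17 and 0.54, none of them called. At gd18 against gd16, 2 of the 3 were again not called, with changes below 0. Mvk, mevalonate kinase, fell by 0.72 at gd12 and rose by 0.88 at gd14 by its brighter probe set, and its other probe set was not called either time (-0.18 and 0.46). Of the 2 other probe sets of Cyp51, the dimmer was called in none of the 4 comparisons of adjacent stages up to gd18 (-0.10, 0.24, 0.33 and -0.38). The brighter was called as lower at gd12 (-1.07), higher at gd14 (0.90) and lower at gd18 (-1.23), and not called at gd16 (0.45). The 2 other probe sets of Sc5d were called as lower at gd12 (-1.09 and -0.60) and higher at gd16 (1.15 and 1.03). Neither was called at gd14 against gd12 (0.32 and 0.22) or at pnd2 against gd11 (-0.12 and -0.05). At gd18 against gd16 the brighter fell (-0.79) and the dimmer was not called (-0.34).

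Some of the regulators moved with the synthesis genes and some did not. Srebf2, the SREBP gene most tied to cholesterol synthesis, read 962, 634 and 716 at gd12, against 1757, 958, 1363, 1087 and 1131 at gd11, and fell by 0.68 ± 0.15 (adjusted p = 0.003, limma). The groups overlapped, since gd12 replicate 13 lay just above gd11 replicate 17. It rose at gd14, to 1379, 1466 and 1431, against those gd12 values (0.89 ± 0.17, adjusted p = 0.00103). From then on it stayed high while the synthesis genes fell: at gd18 it read 1643, 1674 and 1601, against 1659, 1556 and 1512 at gd16, a change that was not called. Whether its course differed from that of the synthesis genes was not tested.

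Scap, the sterol-sensing escort of the SREBPs, climbed to gd18 by the brighter of its probe sets. It read 1443, 1438, 1343, 1391 and 1212 at gd11, 2304, 1625 and 2639 at gd12, 2711, 3473 and 3324 at gd14, 4574, 4484 and 4207 at gd16, 7106, 5472 and 5036 at gd18 and 5494, 5463 and 5727 at pnd2. It rose at gd12 (0.65 ± 0.13, adjusted p = 0.00172, limma), at gd14 (0.55 ± 0.15, adjusted p = 0.0129) and at gd16 (0.48 ± 0.15, adjusted p = 0.0408), each against the stage before. At pnd2 it stood 2.01 ± 0.13 above gd11 (adjusted p = 3.83e-10), with no overlap of the arrays. A second, dimmer probe set of Scap rose at gd12 (1.22) and stood 0.69 above gd11 at pnd2, both called. It was not called at gd14 (-0.04), gd16 (0.31), gd18 (-0.06) or pnd2 (-0.74), each against the stage before. The brighter probe set lost its gd16 call with any 1 array left out. Its gd14 call was lost in 3 of 6 such fits, those without gd12 replicate 14, gd14 replicate 11 or gd14 replicate 12 (highest adjusted p = 0.0796, limma).

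Insig1, an inhibitor of SREBP transport and itself an SREBP target, was scattered. It read 1249, 957 and 786 at gd14, against 402, 708 and 587 at gd12 (0.81 ± 0.27, adjusted p = 0.0457, limma), with no overlap. The call held in 2 of the 6 fits that left 1 of these arrays out, and was lost without gd12 replicates 13 or 15 or gd14 replicates 10 or 11 (highest adjusted p = 0.2). Its gd16 arrays read 2203, 1147 and 1296 and its gd18 arrays 843, 858 and 672, and neither step was called (0.59 ± 0.27 at gd16 and -0.90 ± 0.27 at gd18, adjusted p = 0.065). Its course, low at gd12 and highest at gd16, resembled that of the synthesis genes. Insig2, the other inhibitor, averaged 970 ± 52.9 at gd18, its highest stage, and 704 ± 57.6 at gd12, its lowest (SD, n = 3 each). No adjacent step of this brightest probe set was called. Its other probe sets were at 0.36 (adjusted p = 0.0496, limma) and 0.39 (adjusted p = 0.0643) at gd14 against gd12. At gd14 against gd11 they were at 0.18, not called, and 0.45 (adjusted p = 0.00792). Srebf1, the SREBP gene more tied to fatty acid synthesis, climbed slowly and was called at pnd2 against gd11, at 2059, 2019 and 1928 against 1139, 1224, 1125, 1223 and 1146 (0.76 ± 0.09, adjusted p = 1.07e-06). Over that span 4 of the 5 regulators rose, against 24.2% of all genes, all but Srebf2, though Insig1 and Insig2 (0.66 and 0.29) lost the call with some single arrays left out.

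Among the uptake and handling genes Scarb1 changed most. It read 649, 689, 858, 837 and 763 at gd11, 2024, 1316 and 2098 at gd12, 7188, 7255 and 6900 at gd14, 14630, 12311 and 11579 at gd16, 5827, 8724 and 4341 at gd18 and 5198, 4005 and 4644 at pnd2. It rose at gd12 (1.21 ± 0.18, adjusted p = 0.0001, limma), at gd14 (1.99 ± 0.20, adjusted p = 1.75e-06) and at gd16 (0.84 ± 0.20, adjusted p = 0.0121) and fell at gd18 (-1.08 ± 0.20, adjusted p = 0.00391), each against the stage before. The arrays of neighbouring stages did not overlap in any of these steps. Unlike the synthesis genes, Scarb1 was already higher at gd12 than at gd11, and at gd14 it stood 3.20 ± 0.18 above gd11 (adjusted p = 1.29e-10), a 9.18-fold difference. At pnd2 it was 2.57 ± 0.18 above gd11. The gd16 call was lost without gd16 replicate 7.

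Abca1, which exports cholesterol to lipoproteins, was higher at gd12 and at gd18, where synthesis genes fell. It read 3014, 2328 and 2071 at gd12, against 1315, 1360, 1643, 1713 and 1943 at gd11 (0.62 ± 0.13, adjusted p = 0.00264, limma), with no overlap, although 2 dimmer probe sets of the gene were not called there (0.35 and 0.16). The change was 0.46 without the gd11 replicates 16 and 17 (adjusted p = 0.0134, limma), and 0.31, not called, without gd12 replicate 13 as well (adjusted p = 0.0657). It averaged 2693 ± 73.4 at gd14 and 2796 ± 246 at gd16 (SD, n = 3 each), and neither step was called. At gd18 it read 5631, 5182 and 6605, against 2549, 2800 and 3040 at gd16, and rose by 1.04 ± 0.15 (adjusted p = 0.000649). It was the 1 gene of the set that rose at gd18. At pnd2 it read 4648, 3814 and 3677, below each gd18 array (-0.52 ± 0.15, adjusted p = 0.0384), a call that held in 2 of the 6 fits that left 1 of these arrays out. The 2 dimmer probe sets were not called at pnd2 against gd18 (-0.47 and -0.34). Macrophages also express Abca1, and the mean log2 level of 8 macrophage markers was 7.98 to 8.53 at gd16, 8.49 to 9.43 at gd18 and 8.69 to 8.89 at pnd2. Their part in the rise of Abca1 was not tested.

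Lipe, the hormone-sensitive lipase that frees cholesterol from its esters, read 279, 332 and 286 at gd14, against 182, 154 and 157 at gd12 (0.78 ± 0.23, adjusted p = 0.021, limma), and averaged 290 ± 75.1 at pnd2 (SD, n = 3). The gd14 arrays all lay above the gd12 arrays, but the call was lost without gd12 replicate 14, gd12 replicate 15 or gd14 replicate 11 (highest adjusted p = 0.0778, limma). Against gd11, Lipe was higher at gd14 (0.91, adjusted p = 0.00122, limma) and at pnd2 (0.85, adjusted p = 0.00181, limma). Both of these calls held in the 8 fits that left 1 array out. Stard4, a soluble sterol carrier, fell at gd18, at 1004, 1149 and 840 against 1510, 1302 and 1450 at gd16 (-0.51 ± 0.14, adjusted p = 0.0415), a call lost with any 1 of 5 of the 6 arrays left out. The other probe sets of Stard4 were not called at this step (-0.42 and -0.25). For Npc1 and Npc2, which release cholesterol from lysosomes, no adjacent step was called. Npc1 averaged 513 ± 78.7 at gd14 and 344 ± 55.3 at gd11 (0.55 ± 0.16, adjusted p = 0.00824, limma), but was not called without the gd11 replicates 16 and 17 (0.41, adjusted p = 0.0511) or without gd14 replicate 12 (adjusted p = 0.0626). Npc2 averaged 5990 ± 503 at gd14 and 7065 ± 514 at gd11 (-0.24 ± 0.07, adjusted p = 0.0135), with overlapping arrays (SD, n = 3 and 5), a call lost without gd14 replicate 10 (adjusted p = 0.0941, limma). At pnd2 against gd11, 2 other probe sets of Npc2 fell (-0.37 and -0.88), where the brightest was not called.

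Neighbouring pathways were read from fixed lists for context. Of all genes 11.2% rose and 10.2% fell at gd12, 11.4% and 7.34% at gd14, and 5.39% and 4.99% at gd16. At gd18 1.70% rose and 3.18% fell, and at pnd2 2.54% and 5.26%, each against the stage before. Of 14 fatty acid synthesis genes, also SREBP targets in part, 2 rose and 5 fell at gd12, 8 rose and 0 fell at gd14, 4 rose and 0 fell at gd16, and 0 rose and 2 fell at gd18, each against the stage before. The malic enzyme gene Me1, which supplies NADPH, rose at gd12 (2.06 ± 0.17) and at gd14 (1.68 ± 0.19), and Scd1, a fatty acid desaturase, fell at gd12 (-2.04 ± 0.29) and rose at gd14 (1.20 ± 0.33). The desaturase genes Fads1 and Fads2 rose at gd16 and fell at gd18 (-0.57 ± 0.11 and -0.72 ± 0.18). Of 9 genes of the branch that turns farnesyl diphosphate to other isoprenoids at most 1 was called in any adjacent comparison, such as Dhdds, of dolichol synthesis, at gd14 (0.57 ± 0.12). Of 21 other genes of cholesterol processing and transport 4 rose and 1 fell at gd12, 1 rose and 2 fell at gd14 (median change 0.02; 2 rose and 0 fell without gd12 replicate 13), 2 rose and 0 fell at gd16, 1 rose and 0 fell at gd18, and 0 rose or fell at pnd2. Against gd11, 7 rose and 3 fell at gd14, where 23.7% of all genes rose and 19.3% fell, and likewise 7 and 3 at pnd2, where 24.2% and 24.4% did.

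Fetal Leydig cells were read through 6 steroidogenesis genes, whose mean log2 level ran from 6.31 to 7.46 at gd11, 8.25 to 9.78 at gd12, 12.47 to 12.64 at gd14, 13.05 to 13.44 at gd16, 12.21 to 12.96 at gd18 and 11.51 to 11.94 at pnd2. All 6 rose at gd14 against gd12, among them Cyp17a1, at 17121 ± 765 at gd14 and 378 ± 293 at gd12 (5.65 ± 0.38), and Star, the mitochondrial cholesterol carrier, at 3403 ± 403 at gd14 and 357 ± 243 at gd12 (3.39 ± 0.60; SD, n = 3 each). At gd12, where synthesis genes fell, 3 of the 6 rose, Cyp17a1, Hsd3b1 and Hsd17b3. The highest gd12 level, 9.78, was that of replicate 13, the array high in adrenal cortex markers, against 8.25 and 8.78 on the others, and without it the same 3 rose at gd12 and all 6 at gd14. At gd16 0 of 6 were called, though all 6 changes lay above 0 (median 0.65). At gd18 1 fell, Fdx1, the electron donor of the steroidogenic cytochromes (-0.84 ± 0.19). The median change of the 6 genes at gd18 was -0.90, in a range from -1.72 to 0.74. At pnd2 against gd18, Cyp17a1 and Fdx1 fell, with a median change of -0.62 over the 6. Of all genes 11.2% rose at gd12 and 11.4% at gd14, 10.4% were called at gd16, 3.18% fell at gd18 and 5.26% fell at pnd2. How much of the change in the synthesis genes lies in Leydig cells was not tested.

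The whole-newborn pool places the pnd2 testis beside the average of the body. With 1 reference array there is no test, and the pool also differs in age and sex. At pnd2 3 of 28 genes were at least 2-fold above the pool and 2 at least 2-fold below it, where 17.5% of all genes were above and 17.3% below. The median difference was 0.06, against 0.11 over all genes. Scap read 5494, 5463 and 5727 at pnd2, a log2 difference of 1.46 from the pool, Srebf2 differed by 1.30 (1440, 1421 and 1516, against 581) and Scarb1 by 1.22 (5198, 4005 and 4644, against 1957). Those 3 lay above the pool on every pnd2 array. Tm7sf2 read 307, 288 and 242 at pnd2, against 960 in the pool (-1.71), and Lipe read 292, 215 and 365, against 841 (-1.49). Of the other 16 synthesis genes each lay within 2-fold of the pool, between -0.64 (Pmvk) and 0.74 (Idi1).

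**Figure D5:**
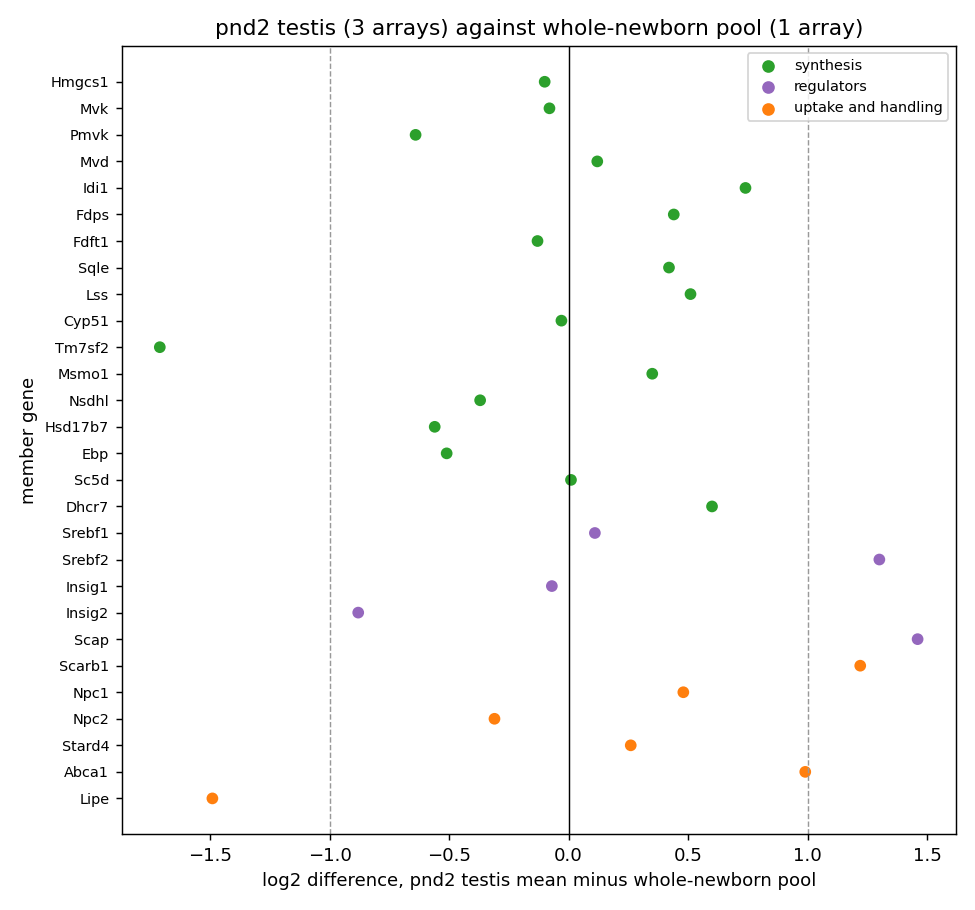
Log2 difference of the pnd2 testis mean (3 arrays) from the whole-newborn pool (1 array) (horizontal axis) for each of the 28 genes (vertical axis), coloured by role, with dashed lines at 2-fold. Scap, Srebf2 and Scarb1 lie right of the upper line and Tm7sf2 and Lipe left of the lower line.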

How the data were processed

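The deposited values are linear intensities, 1 per probe set, which the authors computed in GCOS, Affymetrix's array software, according to the submitters' processing notes. The software's version and algorithm: not given in the sources used here. All 21 arrays have a mean of 500 after the lowest and highest 2% were trimmed, so they were used as deposited. The array has 45101 probe sets, of which 34945 are annotated to a single gene, 932 to several and 9160 to none, beside 64 controls. By Entrez identifier 34741 of the names matched a mouse gene table (GRCm38.p6), and the other 204 stayed as annotated. Intensities were taken as log2(intensity + 22.4), the 20th percentile of testis values; this scale understates changes of dim genes. A probe set was kept if it exceeded the 40th percentile of the array on 3 or more of the 20 testis arrays, and a gene was its probe set with the highest mean, which left 14338 genes. Levels under 71.6 are called near background.

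All 20 testis arrays entered 1 fit in limma 3.58.1 (R 4.3.3; lmFit, eBayes with trend, 6 stage means, 14 residual and 4.94 prior degrees of freedom), with Benjamini-Hochberg adjustment over all genes per comparison, and the script was tested on simulated data. The labels name no batch. All 28 measured genes are described, and of each context list the counts and at most 4 called genes with the largest change per comparison. Members, lists and tests were chosen with earlier results of these data known. Promoter windows are those of RefSeq; Fdps, Fdft1, Sqle, Scarb1, Npc1 and Stard4 were not matched. Alternatives were other pseudocounts, filters, normalization, probe set summaries, array weights, fits of 2 stages and leaving out arrays.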

Additional observations from a re-analysis of the deposited data

Results flagged for a closer look

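Hsd17b7, a reductase of sterol demethylation, read 1151 on gd11 replicate 16, against 728 to 805 on the other 4 gd11 arrays. The gap to the nearest array was 0.78 of the stage's range on the log2 scale, above Dixon's critical value of 0.71 for 5 arrays, and chance flags about 1 in 20 such groups. At that rate, 28 measured genes could give such a flag by chance. Only gd11 has enough arrays for this test. Replicate 16 was also the highest gd11 array for 14 of the 17 synthesis genes and for the neural markers, and the part of those markers in the value was not tested. Without gd11 replicates 16 and 17 Hsd17b7 was still called as lower at pnd2 than at gd11, by -0.35 (adjusted p = 0.0402, limma), against -0.47 with them. Its other 3 probe sets changed by 0.20, -0.29 and -0.05 there, none of them called.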

How the results depend on the processing

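Across the 7 stage comparisons 92 of 196 gene changes were called, and 58 kept the call in every alternative that was run and concerned their stages; none reversed. Pseudocounts of 8 and 100, filters at no level or the 60th percentile and quantile normalization lost at most 4 of the 92 calls. At gd16 against gd14, 10 genes were called, but 6 with the mean of all probe sets of a gene and 16 with array quality weights. At pnd2 against gd18, 2 were called, but 1 with the mean of all probe sets and 6 with array weights. The cause was not tested. With 1 array left out, the called genes numbered 13 to 16 at gd12 against gd11 (15 with all arrays), 18 to 20 at gd14 against gd12 (21), 2 to 6 at gd16 against gd14 (10; fewest without gd16 replicate 7), 11 to 16 at gd18 against gd16 (16; fewest without gd16 replicate 7), 1 to 2 at pnd2 against gd18 (2), 11 to 15 at pnd2 against gd11 (14) and 10 to 18 at gd14 against gd11 (14; 10 without gd14 replicate 10, 18 without gd11 replicate 16). The F-test called 24 to 28 (27). Leaving out gd12 replicate 13 together with gd11 replicates 16 and 17 was chosen after seeing the data. No paired analysis was possible because no replicate number is shared between stages. Each later stage has 3 arrays, which limits what small changes can be called.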
